A study of Mus musculus with 8 samples.

Results

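The cytosolic ribosomal protein genes are the genes for the proteins of the large and the small subunit of the ribosome that translates nuclear mRNAs. They were taken by symbol: names that begin with Rpl or Rps and a number, together with Rplp0, Rplp1, Rplp2 and Rpsa, without the Rps6k kinases and without pseudogene symbols. The symbols matched 89 genes, and 84 of the 17823 genes of the count table had at least 10 counts in at least 4 libraries, 49 of the large and 35 of the small subunit. Of the 84 genes, 74 were the standard ribosomal proteins (43 large, 31 small), 9 were paralogs or retrogenes, and 1, Rps19bp1, is a binding partner of Rps19 and not a ribosomal protein. The 5 genes under the minimum were Rpl28, Rpl36a, Rpl23a, Rpl10l and Rpl3l, the last of them a muscle form. Rpl28 had 34 counts in all tdT-positive libraries together and 36 in all tdT-negative ones, Rpl36a 33 and 45, Rpl23a 21 and 22, Rpl10l 0 and 1, and Rpl3l 12 and 20.

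The samples were macrophages grown from C57BL/6 bone marrow for 7 days with recombinant M-CSF (20 ng) and given LPS at 1 µg/ml, a bacterial cell wall component that activates macrophages. They carried the Il19-tdT reporter and formed 2 groups, 4 tdT-positive and 4 tdT-negative libraries of polyadenylated RNA, numbered 1 to 4 in each group. The study compared the transcriptomes of both groups, which share strain, growth factor, culture time and LPS. The sources used here do not say how positive and negative cells were separated, or whether libraries of the same number came from the same mouse, culture or day. P-values therefore measure only the spread between these samples, which may be technical.

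A ribosome holds 1 copy of nearly every one of these proteins, so their mRNAs are usually made and used together. In mammals most of them start with a cytosine and a run of pyrimidines, the terminal oligopyrimidine tract, through which LARP1 and the mTOR kinase set how well they are translated. Growing cells spend much of their transcription and translation on ribosomes, and the protein set is assembled with ribosomal RNA in the nucleolus.

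Library totals lay between 49850537 and 58516454 counts, so that 3 counts, the floor of detection used here, equalled 0.0490 to 0.0696 CPM, counts scaled to a common library size and composition. Il19 checked the labels: it averaged 185 ± 36.6 CPM in tdT-positive against 11.98 ± 3.45 CPM in tdT-negative libraries (SD, n = 4 each; edgeR log2 fold change 3.95, adjusted p = 0.000594). tdT-positive library 3 stood apart by 2 transcripts, Rn45s at 141822 CPM against 3132 to 7467 CPM in the other libraries, and Lars2 at 10967 CPM against 250 to 765 CPM. The macrophage markers were present throughout, with a summed level of 14233 to 18471 CPM in tdT-positive against 12007 to 21526 CPM in tdT-negative libraries.

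Ribosomal protein mRNA took up a smaller part of the tdT-positive libraries. The 84 genes held 0.536%, 0.535%, 0.534% and 0.604% of all counts in tdT-positive libraries 1 to 4, against 0.643%, 0.686%, 0.892% and 0.820% in tdT-negative libraries 1 to 4. The means were 0.552% ± 0.0345 and 0.760% ± 0.116 (SD, n = 4 each), a difference of −0.208 percentage points, and every tdT-positive value was below every tdT-negative one. The total of tdT-positive library 3 includes its high Rn45s and Lars2 counts, which make its share smaller. In bulk samples fewer cells of a type and less RNA per cell cannot be told apart.

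Scaled for library composition, the summed level was 5552, 5219, 6175 and 5768 CPM in tdT-positive libraries 1 to 4 and 6669, 6737, 9071 and 7109 CPM in tdT-negative libraries 1 to 4. Within each number the tdT-positive sum was lower, by 16.8%, 22.5%, 31.9% and 18.9% for numbers 1 to 4. The largest gap, in number 3, went with the highest tdT-negative sum.

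**Figure D1:**
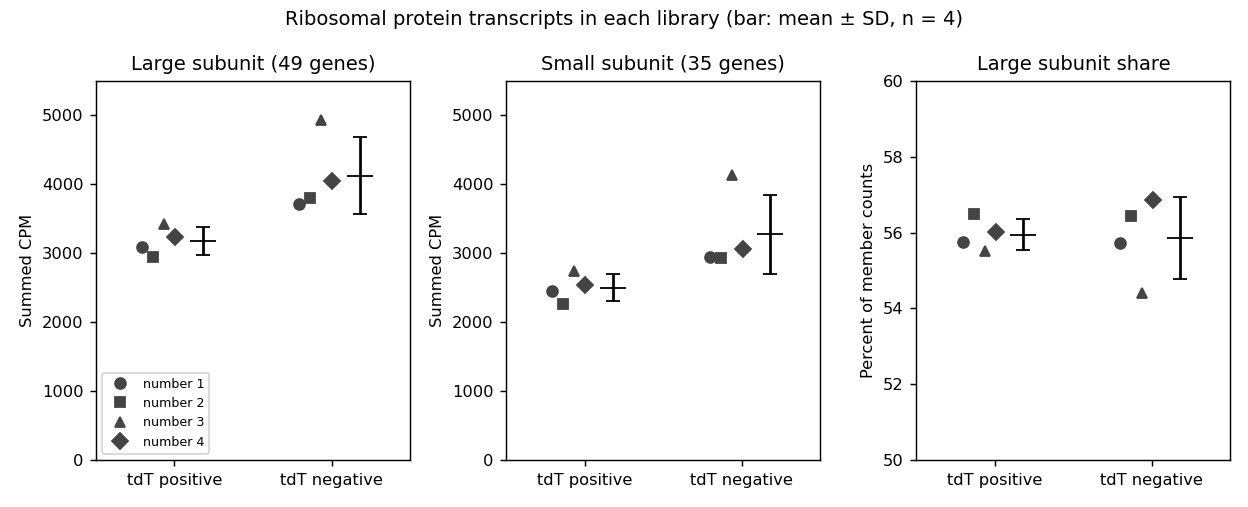
Summed CPM of the large-subunit genes (left) and small-subunit genes (middle), and the percentage of members' counts in large-subunit genes (right, axis from 50% to 60%), in each tdT-positive and tdT-negative library, with a marker shape for each number and bars of mean ± SD (n = 4). The groups do not overlap in either sum, whereas the percentages overlap around a mean of 55.9% in both groups.

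Both subunits had the lower level. The 49 large-subunit genes summed to 3096, 2949, 3429 and 3231 CPM in tdT-positive libraries and to 3716, 3802, 4934 and 4043 CPM in tdT-negative libraries. The 35 small-subunit genes summed to 2456, 2271, 2747 and 2537 CPM in tdT-positive libraries and to 2952, 2935, 4136 and 3066 CPM in tdT-negative libraries. Both sums were lower in all 4 tdT-positive libraries than in any tdT-negative one.

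Their balance showed no such separation. The log2 ratio of large to small was 0.334, 0.377, 0.320 and 0.349 in tdT-positive libraries and 0.332, 0.374, 0.255 and 0.399 in tdT-negative libraries. The means, 0.345 ± 0.0245 and 0.340 ± 0.0631 (SD, n = 4 each), differed by 0.00517, less than the spread between replicates, and the groups overlapped. Large-subunit genes held 55.9% ± 0.418 of the ribosomal protein counts in tdT-positive and 55.9% ± 1.08 in tdT-negative libraries (SD, n = 4 each). Within numbers the difference of the log2 ratio was 0.00162, 0.00341, 0.0654 and −0.0497, positive in numbers 1 to 3 and negative in number 4.

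Gene by gene, no member passed the test with group as the only term. The edgeR quasi-likelihood test with Benjamini-Hochberg adjustment called 3 genes, 0.0238% of the 12610 that passed the filter on low counts, and 0 of the 84 members, all of which passed that filter, with Rpl39 closest at an adjusted p of 0.0672. At an unadjusted p under 0.05, 52 members were lower in tdT-positive libraries and none was higher, where 8.81% of all genes tested were lower by that rule. The DESeq2 Wald test called 26 members lower, beside 4.71% of all genes, whereas limma voom called 0 members. The members' median log2 fold change was −0.39 (large −0.38, small −0.40), against −0.00 over all genes tested.

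With the replicate number as a block, 50 of the 84 members fell, 0 rose and 34 did not pass, in a fit that called 7.81% of all genes lower and 8.03% higher. The block was used because libraries of the same number varied together. By subunit, 28 of 49 large and 22 of 35 small genes fell, and the median log2 fold changes were −0.37 and −0.39, against 0.01 for all genes tested. Of the 74 standard ribosomal proteins 47 fell, and of the 9 paralogs 3 fell. The sign was negative for 79 of the 84 members and for 6200 of the 12610 genes tested.

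Those calls rest on the pairs to different degrees. Without number 1 the blocked fit called 20 of 84 members lower (4.72% of all genes), without number 2 it called 4 of 83 (2.01%), without number 3 it called 8 of 84 (0.993%) and without number 4 it called 63 of 82 (10.4%). The members' median stayed between −0.41 and −0.30 in these fits. Ribosomal protein mRNAs are short, with a median of 729.5 bases against 2872 bases for all genes tested, and a correction of each library for gene length left 32 members lower (18 large, 14 small; 7.95% of all genes) with a median of −0.20. Scaling by library totals alone called 47 lower, beside 7.9% of all genes, with a median of −0.46.

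**Figure D2:**
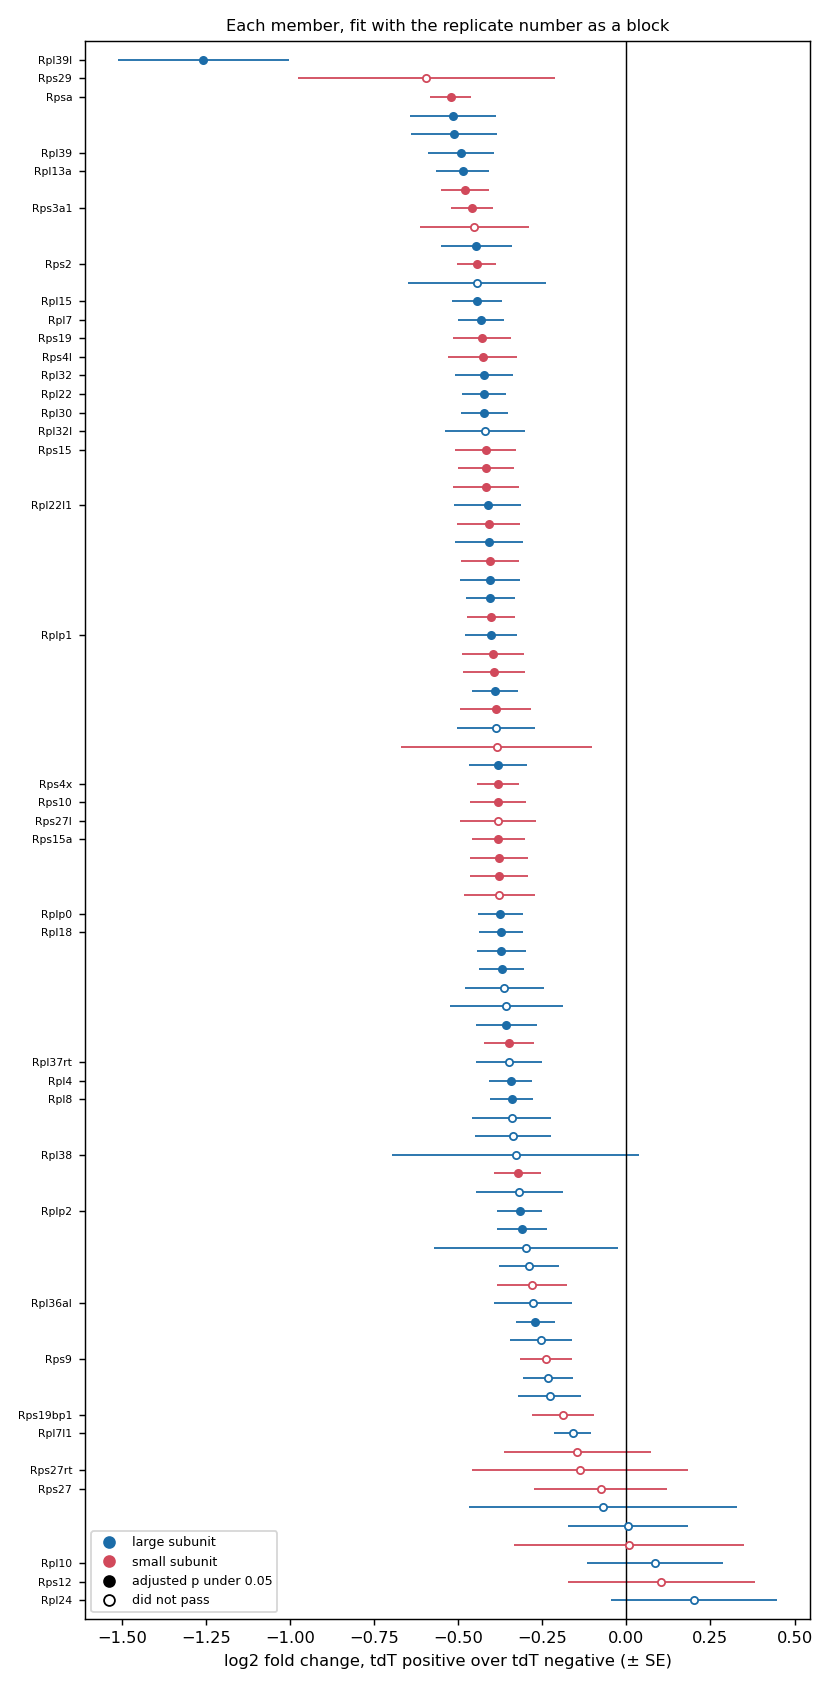
Log2 fold change of each of the 84 members, tdT positive over tdT negative, from the edgeR fit blocked on replicate number, with bars of 1 SE, ordered by fold change, coloured by subunit and filled where the adjusted p was under 0.05, with labels for genes named in the text. Genes of both subunits are mixed along the order, Rpl39l stands lowest at −1.26, and all 50 filled points lie below 0.

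Among the 64 members with a mean of at least 5 CPM the shift was narrow. Their blocked log2 fold changes ran from −0.52 to −0.16 with a median of −0.38 and an SD of 0.0737. The median SE of a single gene was 0.0856. The genes share their libraries and vary together, so an SD below the SE does not show that all shifted equally. Of the 64 members 47 fell, against 3 of the 20 members below 5 CPM, whose fold changes ran from −1.26 to 0.20 with a median SE of 0.233. By number, the large-subunit genes among the 64 had median log2 differences of −0.26, −0.35, −0.60 and −0.24, and the small-subunit genes −0.27, −0.37, −0.64 and −0.28. Across all 84 genes, 68 were lower in the tdT-positive library of every number, where 19.6% of all genes were, and 34 (19 large, 15 small) had all 4 tdT-positive values below all 4 tdT-negative ones, where 5.92% of all genes did. No member had the groups apart with tdT-positive higher.

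**Figure D3:**
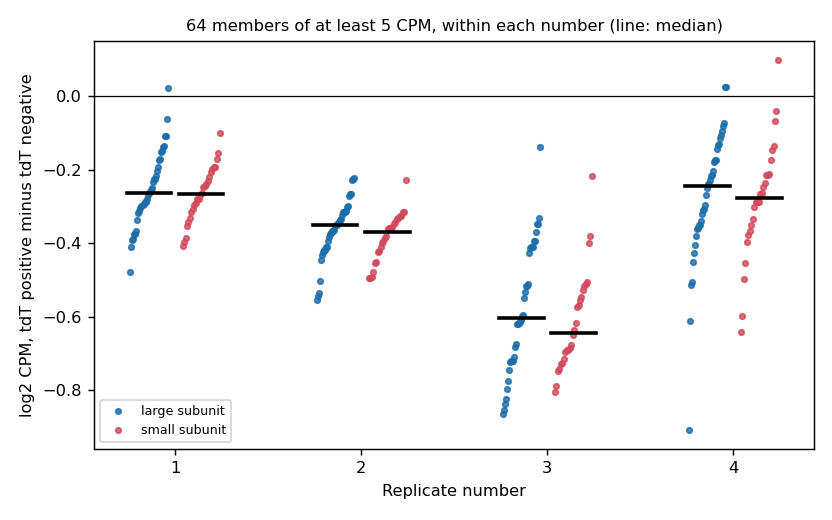
Log2 CPM difference of each of the 64 members with a mean of at least 5 CPM, tdT positive minus tdT negative of the same number, by subunit and replicate number, with a line at each median. Nearly all points lie below 0, and number 3 has the lowest medians, −0.60 for the large and −0.64 for the small subunit.

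**Figure D4:**
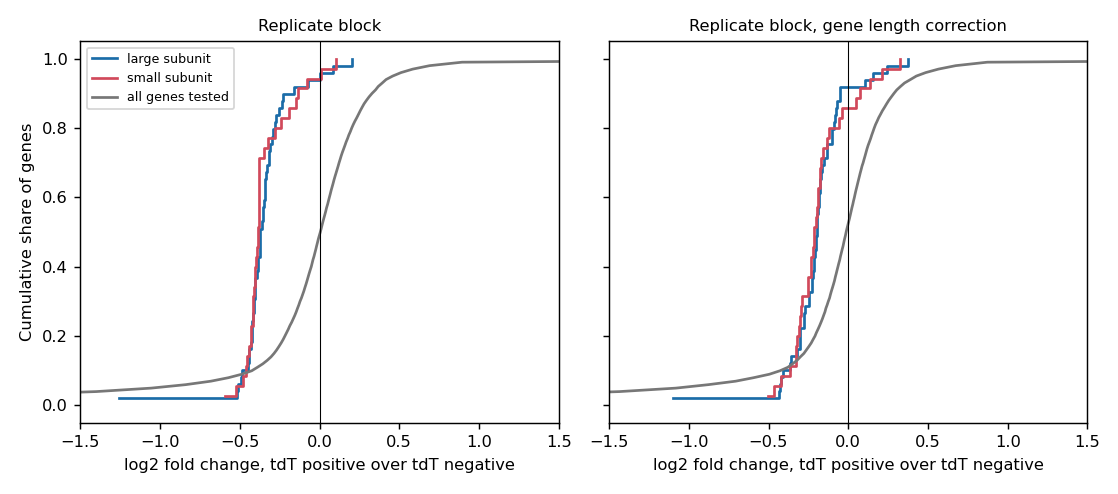
Cumulative share of genes by log2 fold change, tdT positive over tdT negative, for large-subunit genes, small-subunit genes and all genes tested, with the replicate block (left) and with the block and the gene length correction (right). The curves of both subunits run together and to the left of all genes over most of their range, with a member median of −0.38 on the left and −0.20 on the right.

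Start regions were searched for short motifs, since these genes are known for pyrimidine-rich starts. Of the 64 members with a RefSeq start region (GRCm38.p6), 30, or 46.9%, held CTCTTT or CTTTCC within 50 bases either side of the start on the transcript strand, against 9.29% of 27025 genes, and the motifs can overlap. Counting both strands the shares were 51.6% and 17.2%. CGGAAG, searched on both strands over 250 bases before to 50 bases after the start, occurred in 67.2% of members and 18.8% of the 27025 genes. Those 27025 genes include the members and were not filtered by expression, unlike the members. The pyrimidine motifs were found in 16 of the 35 members that fell (45.7%) and 14 of the 29 that did not pass (48.3%). CGGAAG was found in 68.6% and 65.5% of them. A match is a description of letters, not a site, and a motif before the RefSeq start lies outside the annotated transcript. Windows of 30 bases are shown for 3 large- and 3 small-subunit genes that fell, and for the Rpl39 and Rpl39l pair. The 3 large- and 3 small-subunit genes were chosen because they held a pyrimidine motif near the start, and each window was placed around it. For Rpl39 and Rpl39l the window was fixed at −15 to 15 around the start. The pyrimidine motif is in capitals:
Rpl22, chr4:152325682-152325711, plus strand: tctgactcctccCTTTCCcgacagccgact
Rpl15, chr14:18270965-18270994, minus strand: aaagccttcttcCTTTCCtctggcggcagc
Rpl18, chr7:45718060-45718089, plus strand: tctcgcaggccgCTCTTTCCccgcccactc
Rps19, chr7:24884623-24884652, plus strand: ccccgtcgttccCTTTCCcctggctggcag
Rps15a, chr7:118116143-118116172, minus strand: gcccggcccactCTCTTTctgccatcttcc
Rps10, chr17:27635223-27635252, minus strand: gcacgccccttcCTTTCCagcctccgcctc
Rpl39, chrX:37085208-37085237, minus strand: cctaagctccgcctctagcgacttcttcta
Rpl39l, chr16:10170213-10170242, plus strand: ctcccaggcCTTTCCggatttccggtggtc

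Counted from the RefSeq start, the windows of Rpl22 (−44 to −15) and Rps19 (−53 to −24) lay wholly before it. In Rps15a (−25 to 5) and Rpl39l (−15 to 15) the motif also came before the start. Blocked log2 fold changes of the genes shown were −0.42 for Rpl22, −0.44 for Rpl15, −0.37 for Rpl18, −0.43 for Rps19, −0.38 for Rps15a and −0.38 for Rps10. The calls of Rpl18 (adjusted p = 0.0619) and Rps10 (0.0639) were lost with the gene length correction. Rpl39, with no such motif in the window shown, had −0.49, and Rpl39l had −1.26.

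In the small subunit the smallest p-values belonged to Rpsa, Rps2 and Rps3a1. Rpsa, a small-subunit protein also known as a laminin receptor, lies at chr9:120127689-120132369 on the plus strand (GRCm38). It had 47.0, 52.6, 61.7 and 51.7 CPM in tdT-positive libraries against 61.9, 74.1, 90.7 and 80.7 CPM in tdT-negative ones, and fell by 0.52 on the log2 scale with the block (SE 0.0613, adjusted p = 0.00852). The highest tdT-positive value was just under the lowest tdT-negative value.

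Rps2, a protein at the mRNA entry side, had 58.1, 62.7, 69.1 and 69.7 CPM in tdT-positive against 72.4, 85.7, 98.4 and 98.5 CPM in tdT-negative libraries (blocked log2 fold change −0.44, SE 0.0582, adjusted p = 0.00921). The groups did not overlap, and the same held for Rps3a1, which averaged 92.0 ± 6.71 CPM in tdT-positive against 127 ± 18.2 CPM in tdT-negative libraries (SD, n = 4 each; blocked log2 fold change −0.46, SE 0.0617, adjusted p = 0.00955). All 3 of these small-subunit genes also passed with the gene length correction.

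The large-subunit genes of smallest p were Rpl22, Rpl7, Rpl13a and Rpl30. Rpl13a, known outside the ribosome as part of an interferon-gamma-activated complex that represses inflammatory mRNAs in human myeloid cells, had 181, 186, 204 and 217 CPM in tdT-positive against 234, 251, 341 and 287 CPM in tdT-negative libraries. It fell by 0.49 on the log2 scale with the block (SE 0.0794, adjusted p = 0.0123). Rpl7, a core protein of the large subunit, had 144, 147, 158 and 146 CPM in tdT-positive against 189, 189, 242 and 187 CPM in tdT-negative libraries (−0.43, SE 0.0680, adjusted p = 0.0115).

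Rpl22, whose protein also binds RNA outside the ribosome, had 63.0, 60.3, 71.3 and 70.4 CPM in tdT-positive against 81.7, 76.8, 109 and 89.9 CPM in tdT-negative libraries (blocked log2 fold change −0.42, SE 0.0655, adjusted p = 0.0114). Rpl30 averaged 31.2 ± 2.73 CPM in tdT-positive against 42.2 ± 7.78 CPM in tdT-negative libraries (SD, n = 4 each; −0.42, SE 0.0701, adjusted p = 0.0126). In each of these 4 genes the groups were apart. With the gene length correction Rpl22, Rpl7 and Rpl13a still passed and Rpl30 did not (adjusted p = 0.0550).

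The stalk proteins, which recruit the elongation factors to the large subunit, all fell with the block. Rplp0, the base of the stalk, had 355, 351, 422 and 336 CPM in tdT-positive against 430, 453, 536 and 477 CPM in tdT-negative libraries (blocked log2 fold change −0.37, SE 0.0667, adjusted p = 0.0148). Rplp1 had 335, 301, 321 and 335 CPM in tdT-positive against 400, 403, 492 and 418 CPM in tdT-negative libraries (−0.40, SE 0.0775, adjusted p = 0.0182). Rplp2 had 91.8, 85.8, 102 and 94.0 CPM in tdT-positive against 113, 115, 136 and 103 CPM in tdT-negative libraries (−0.32, SE 0.0672, adjusted p = 0.0236), and the groups did not overlap in any of the 3 genes. Corrected for gene length, Rplp0 still passed (adjusted p = 0.0422), whereas Rplp1 (0.123) and Rplp2 (0.513) did not.

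Levels per kilobase of gene length were spread widely among the members. The median over large-subunit genes was 43.7 CPM per kilobase (0.361 to 802), and over small-subunit genes 65.9. Among the highest were Rplp1 at 802 CPM per kilobase, the small-subunit gene Rps9 at 460, and the large-subunit genes Rpl8 at 418 and Rpl32 at 388. The 10 members of highest CPM, led by Rpl4 at 488 CPM, held 51.9% of the members' summed level.

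Of the abundant genes, Rpl8 had 307, 290.3, 372 and 299 CPM in tdT-positive against 359, 378, 489.8 and 384 CPM in tdT-negative libraries, with an overlap of the groups. With the block Rpl8 fell by 0.34 on the log2 scale (adjusted p = 0.0168), Rpl32 by 0.42 (0.0210) and Rps15 by 0.42 (0.0257). With the gene length correction Rpl32 and Rps15 still passed and Rpl8 did not (adjusted p = 0.102). Rps9 did not pass: it had 289, 268, 349 and 273 CPM in tdT-positive against 331, 336, 461 and 281 CPM in tdT-negative libraries (−0.24, adjusted p = 0.0775).

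In contrast, 10 members averaged under 1 CPM, among them standard ribosomal proteins such as Rpl38 at 0.143 ± 0.0799 CPM in tdT-positive against 0.177 ± 0.0791 CPM in tdT-negative libraries (SD, n = 4 each), and Rpl24 and Rps29. Rps29 had 6, 8, 5 and 11 counts in tdT-positive and 11, 9, 18 and 11 counts in tdT-negative libraries, too few to show a difference of the size seen in the abundant genes (blocked log2 fold change −0.59, SE 0.383, adjusted p = 0.322). The 3 genes of highest fold change were all low and none passed: Rpl24 at 0.20 (SE 0.247), Rps12 at 0.10 (SE 0.278) and Rpl10 at 0.08 (SE 0.202), each with overlapping groups.

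Levels were also set beside the sequence that each gene shares with other transcripts. Ribosomal protein genes have many processed pseudogenes, and a read that matches several places may be dropped by a counting tool; the sources used here do not say whether that was done. The search used protein-coding transcripts of the GENCODE annotation, and Rps4l, Rpl32l and Rpl37rt, for which it held none, were left out. Over the other 81 members, the share of 50-base stretches that also occur in transcripts of another gene ran from 0% to 95.1% (median 35.9%). Stretches were pooled over all protein-coding transcripts of a gene, so a long transcript can lower the share. The 21 members under 25% had a median of 65.9 CPM per kilobase, and the 27 over 50% had 22.5. Spearman's rho between this share and the level was −0.31, and between this share and the log2 fold change 0.10, as descriptions across 81 genes that share their libraries. Rpl8 shared 6.3% and Rpl24 81.7%. The low genes Rps29 and Rpl38 were at 35.8% and 27.4%, and Rplp1, the highest of all in level, was at 60%. Rpl38 had 164 of 598 pooled stretches shared, with a gene length of 369 bases. Among the 21 members under 25%, 15 were lower with the block, with a median log2 fold change of −0.38. With that block, 50 of all 84 members and 7.81% of all genes were lower. A share under 25% does not mark a gene free of multiple matches. Rpl18, at 20.8%, had 745 of 3585 stretches shared, with a gene length of 679 bases. The part of multiple matches in the levels was not tested.

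**Figure D5:**
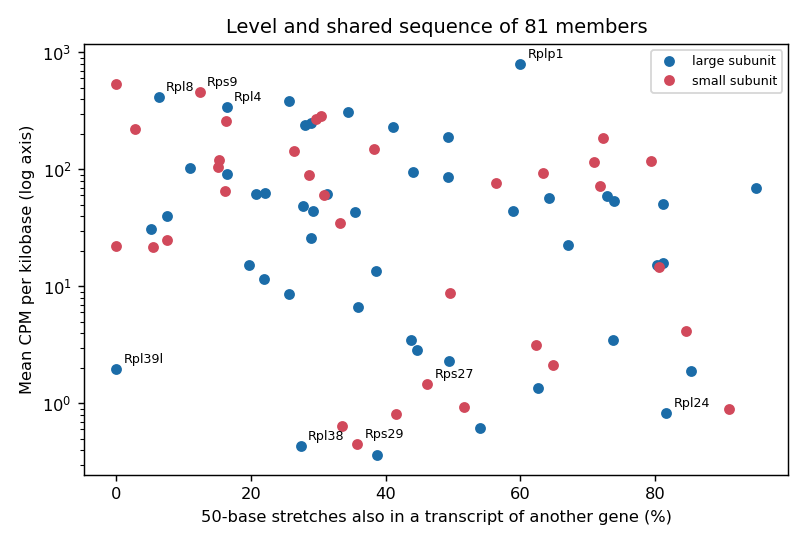
Mean CPM per kilobase over all libraries (log axis) against the percentage of each gene's 50-base stretches that occur in a transcript of another gene, 1 point for each of 81 members, coloured by subunit. Genes above 50% have a median of 22.5 CPM per kilobase, against 65.9 for genes under 25%. The low genes Rpl38 and Rps29 lie at 27.4% and 35.8%. Stretches are pooled over all protein-coding transcripts of a gene.

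The paralogs and retrogenes resemble a standard ribosomal protein gene, and only some are known to replace its protein in certain tissues. Rpl39l, a paralog of Rpl39 that is known from the testis in mice (chr16:10170226-10174911, plus strand, GRCm38), had 1.61, 0.774, 0.858 and 0.621 CPM in tdT-positive against 2.42, 1.58, 2.36 and 2.53 CPM in tdT-negative libraries, from 84, 45, 37 and 38 counts and 130, 94, 131 and 150 counts. It had the lowest fold change of the 84 members (blocked log2 fold change −1.26, SE 0.254, adjusted p = 0.0204), and its log2 difference was −0.58, −0.99, −1.42 and −1.97 in numbers 1 to 4. The highest tdT-positive value lay just above the lowest tdT-negative value. Its parent Rpl39 had 33.7, 29.5, 30.5 and 36.8 CPM in tdT-positive against 44.2, 41.8, 54.5 and 43.4 CPM in tdT-negative libraries (−0.49, SE 0.0985, adjusted p = 0.0200). No 50-base stretch of Rpl39l was shared with another gene.

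Rps4l and Rpl22l1 also fell with the block. Rps4l averaged 3.801 ± 0.755 CPM in tdT-positive against 5.09 ± 0.872 CPM in tdT-negative libraries (SD, n = 4 each; blocked log2 fold change −0.43, SE 0.103, adjusted p = 0.0345), beside −0.38 for its parent Rps4x (adjusted p = 0.0122). Rpl22l1 averaged 17.7 ± 2.78 CPM in tdT-positive against 24.1 ± 7.23 CPM in tdT-negative libraries (−0.41, SE 0.101, adjusted p = 0.0357). The groups of both paralogs overlapped, and neither passed with the gene length correction (adjusted p = 0.117 and 0.149).

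Rps27l, a p53-regulated relative of Rps27, had 29.5, 32.4, 32.3 and 42.4 CPM in tdT-positive against 37.5, 40.3, 56.5 and 44.4 CPM in tdT-negative libraries and did not pass (−0.38, adjusted p = 0.0627), nor did Rpl36al (−0.28, adjusted p = 0.148). Per kilobase of gene length Rps27l was at 65.9 CPM and its parent Rps27 at 1.48 CPM. Rps27 averaged 0.820 ± 0.0919 CPM in tdT-positive against 0.880 ± 0.230 CPM in tdT-negative libraries (SD, n = 4 each; −0.08, adjusted p = 0.816), and the retrogene Rps27rt, with 91.1% shared stretches, 0.287 ± 0.0938 and 0.325 ± 0.129 CPM in the same groups (SD, n = 4 each; −0.14, adjusted p = 0.797). The counts of such near-identical copies are uncertain. Rpl7l1 moved least of the members above 5 CPM (−0.16, adjusted p = 0.0953) and passed with the gene length correction (0.0448). Rps19bp1, the gene that is not a ribosomal protein, had a log2 fold change of −0.19 (adjusted p = 0.199). Among members outside the rule for named genes, chosen after their values were seen, the copies Rpl32l (−0.42, adjusted p = 0.0546) and Rpl37rt (−0.35, adjusted p = 0.0517) were just above the threshold.

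Of 26 further ribosomal and terminal oligopyrimidine genes tested, 14 fell with the block, 0 rose and 12 did not pass (median log2 fold change −0.32), in the fit that called 7.81% of all genes lower. With the gene length correction 9 fell, beside 7.95% of all genes, and without the block none passed. Rack1, a scaffold protein of the small subunit, had 442, 445, 574 and 438 CPM in tdT-positive against 562, 585, 780 and 595 CPM in tdT-negative libraries (blocked log2 fold change −0.41, SE 0.0627, adjusted p = 0.0114). Fau, which encodes a small-subunit protein fused to a ubiquitin-like one, did not pass and averaged 1.59 ± 0.136 CPM in tdT-positive against 1.56 ± 0.294 CPM in tdT-negative libraries (SD, n = 4 each; log2 fold change 0.05, adjusted p = 0.888).

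The elongation factor subunits Eef1g (−0.42, adjusted p = 0.00921) and Eef1b2 (−0.53, adjusted p = 0.00955) and the initiation factor subunit Eif3e (−0.42, adjusted p = 0.00941) had the smallest p-values of that list, before Rack1. Npm1, a nucleolar chaperone of ribosome assembly, had 61.8, 62.9, 66.6 and 70.3 CPM in tdT-positive against 76.7, 88.4, 106 and 133 CPM in tdT-negative libraries (−0.60, SE 0.0978, adjusted p = 0.0123). The groups of Npm1 did not overlap.

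Of 48 ribosome assembly and RNA polymerase I genes, 9 fell, 1 rose and 38 did not pass with the block (median −0.17), beside 7.81% of all genes lower and 8.03% higher. Without the block none of the 48 passed. Those of smallest p were Nhp2 (−0.56, adjusted p = 0.0136), a protein of the RNA-modifying particles, Wdr12 (−0.45, adjusted p = 0.0177), Mrto4 (−0.38, adjusted p = 0.0195) and Nop58 (−0.41, adjusted p = 0.0204). The Mrto4 call was lost with the gene length correction (adjusted p = 0.0867). Taf1c, a subunit of the polymerase I selectivity factor, rose by 0.41 on the log2 scale (adjusted p = 0.0163), a call lost with library totals (adjusted p = 0.0521).

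Of 23 regulators of ribosomal protein mRNA, 3 rose, 1 fell and 19 did not pass with the block, where 8.03% of all genes tested rose and 7.81% fell, so both counts were near the background. Without the block none of the 23 passed. Mxd1, a repressor that opposes Myc, rose by 0.43 (adjusted p = 0.0185). The mTOR inhibitors Tsc1 (0.22, adjusted p = 0.0469) and Tsc2 (0.23, adjusted p = 0.0480) also rose, and neither call held with library totals or the gene length correction. The translation repressor Eif4ebp1 fell by 0.21 (adjusted p = 0.0390), a call lost with the gene length correction (adjusted p = 0.352). Myc itself did not pass, with 8.97 ± 1.40 CPM in tdT-positive against 16.2 ± 11.7 CPM in tdT-negative libraries (SD, n = 4 each; −0.65, adjusted p = 0.177), and neither did Mtor (0.09, adjusted p = 0.3001) or Larp1 (0.20, adjusted p = 0.171).

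Markers of other cells moved with the groups. All 6 stromal markers fell with the block, with sums of 68.7, 139, 50.2 and 93.5 CPM in tdT-positive libraries 1 to 4 and 239, 521, 537 and 2199 CPM in tdT-negative libraries 1 to 4. Of 5 osteoclast markers 4 fell (52.9 to 110 CPM in tdT-positive against 74.8 to 1351 CPM in tdT-negative libraries). Of the 6 neutrophil markers tested 4 fell and 1 rose (sums of 372 to 531 CPM in tdT-positive against 85.0 to 643 CPM in tdT-negative libraries). Prtn3 had 0 counts in all tdT-positive libraries and 30, 88, 13 and 19 in tdT-negative libraries 1 to 4. Elane, too low to be tested, also had 0 counts in all tdT-positive libraries, but only 3, 1, 0 and 1 in tdT-negative libraries 1 to 4. Of 4 markers of dividing cells 1 fell, Top2a, with sums of 20.6 to 52.9 CPM in tdT-positive against 27.3 to 72.6 CPM in tdT-negative libraries. The stromal gap was widest in number 4, as was that of Rpl39l, and the gap of the summed ribosomal protein genes in number 3. The part of these cells in the result was not tested. Of the 8 macrophage markers 1 rose, Mertk.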

How the data were processed

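Polyadenylated RNA of 8 macrophage samples was sequenced from stranded mRNA libraries made from 220 ng of total RNA, per the labels' protocols. The values are gene counts, whole numbers made and deposited by the authors, beside symbols and gene lengths in bases, per the file headers. STAR and mm10 are named in the submitters' processing notes; the sources used here name no counting tool, annotation or strand setting, which leaves overlapping, antisense and near-identical genes uncertain. Each of the 8 count columns carries the identifier of 1 sample in the labels. No library repeated another (chi-square per degree of freedom 54.0 to 759).

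Members and lists were chosen with earlier results of these data known. The expression filter of edgeR 4.0.16 (at least 10 counts, total of at least 15) kept 12610 of 17823 genes. Their counts were scaled by TMM (factors 0.865 to 1.15), and the edgeR quasi-likelihood test was run in R 4.3.3 with group as the only term, with Benjamini-Hochberg adjustment over all genes and a threshold of 0.05. CPM use the TMM-scaled totals. The SE of a log2 fold change is its absolute value divided by the square root of the F statistic of the test. A second fit, blocked on replicate number, is printed because the numbers, taken from the sample titles, paired the libraries: deviations from the group means correlated by 0.627, 0.279, 0.619 and 0.558 for numbers 1 to 4, over 12610 genes, and each library matched its own number best. No list, sum or ratio was tested. The scripts were tested on simulated data.

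Named genes were the 4 passing members of smallest p per subunit with the block, the 3 of highest and lowest fold change, the 3 of highest CPM per kilobase per subunit, the paralogs with their parents, the stalk genes and up to 4 passing genes per other list and direction; some of these are not reported here. Alternatives were DESeq2 1.42.0, other scalings, no filter, a threshold of 0.1, a gene length correction, each library or number left out, and, chosen after seeing the data, totals without Rn45s and Lars2 and members with few shared stretches. Coordinates are from GENCODE vM21, start regions from RefSeq.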

Additional observations from a re-analysis of the deposited data

Results flagged for a closer look

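Of 72 groups of 4 libraries checked, 6 held a sample far from the others, and chance alone gives about 1 in 20. In 5 of them it was tdT-negative library 3. There Rpl36al was at 52.7 CPM, where libraries 1, 2 and 4 of that group had 29.4 to 31.4 CPM, Rpl7 at 242 CPM against 187 to 189 CPM, Rps4x at 248 CPM against 189 to 193 CPM and Rps27 at 1.22 CPM against 0.745 to 0.777 CPM. The summed small-subunit level of that library was 4136 CPM against 2935 to 3066 CPM. In the sixth group, tdT-positive library 4 had 0.604% of its counts in ribosomal protein genes, against 0.534% to 0.536% in the other tdT-positive libraries. The total of tdT-positive library 3 includes its high Rn45s and Lars2 counts. Scaled for composition, tdT-positive library 4 summed to 5768 CPM, below the 6175 CPM of tdT-positive library 3.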

How the results depend on the processing

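The count of members called depended on the model. Without the block, 26 members passed with DESeq2, 10 at a threshold of 0.1, and 0 to 2 with a single library left out. Also without the block, 0 passed with limma voom, the other scalings, no filter or the gene length correction. With the replicate block, 50 passed, 47 with library totals, 53 with DESeq2 size factors, 32 with the gene length correction, 20, 4, 8 and 63 without number 1, 2, 3 or 4, 50 without Rn45s and Lars2, and 15 of the 21 members under 25% shared stretches. Over all genes the count of 3 became 216 with no filter, 921 with DESeq2, 524 at a threshold of 0.1 and 2 to 456 with a library left out. With the replicate block it was 1998, 1418 with library totals, 1990 with DESeq2 size factors, 1691 with the gene length correction, 1023, 347, 355 and 2535 without number 1, 2, 3 or 4 and 2005 without Rn45s and Lars2. These counts hold both directions. Of 12610 genes tested without the block, 594 were lower with DESeq2 and 370 at a threshold of 0.1. With the block 985 were lower, 996 with library totals, 1007 with DESeq2 size factors and 1002 with the gene length correction. The cause of these differences was not tested. The members' median log2 fold change was −0.20 with the gene length correction, with or without the block, and −0.45 to −0.26 with a library left out, the weakest without tdT-negative library 3. Library totals move the median of all genes by −0.07 on the log2 scale. The large-minus-small difference of medians, 0.02, stayed between −0.00 and 0.03. The difference in share of counts, −0.208 percentage points, lay between −0.247 and −0.164 with a library left out. Of 31 named members, 26 were lower in every setting. The signs of 4 low genes turned and none of these passed: with the block and gene length correction Rps27rt was at 0.050 and Rps27 at 0.14. With the block and a number left out, Rpl10 ran from −0.068 to 0.31, Rps12 from −0.18 to 0.32, Rps27 from −0.15 to 0.027 and Rps27rt from −0.28 to 0.16. With a library left out, they ran from −0.10 to 0.26, −0.16 to 0.21, −0.17 to 0.10 and −0.43 to 0.086 in the same order. Depth limits the 20 members under 5 CPM, whose median SE was 0.233.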
